A study of Mus musculus with 6 samples.

Results

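The mRNAs described here encode the enzymes of the citrate cycle and the enzymes that bring pyruvate into it. They are 35 genes chosen by symbol from a fixed list of enzymes, of 55376 genes in the deposited tables. Of the 35, 29 encode enzymes of the mitochondrion and 6 (Aco1, Idh1, Mdh1, Acly, Me1 and Got1) encode enzymes of the cytosol that handle the same metabolites. They were followed through an RNA immunoprecipitation sequencing (RIP-seq) experiment on satellite cells (SCs), the stem cells of muscle, from C57BL/6 mice aged 3 months. The labels name no transgene and no treatment in any group. Each of 3 groups held 2 libraries: CPEB1 IP, from an immunoprecipitation with an anti-CPEB1 antibody, IgG, from a control immunoprecipitation labelled anti-IgG, and Input, from RNA that met no antibody. The cells had been sorted without fixation by FACS as negative for CD31, CD45 and Sca1 and positive for Vcam1, and the study regards freshly isolated SCs as cells that have begun to activate. According to its methods the mice were males, and how many went into a library is not given in the sources used here.

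Pyruvate, the end product of glycolysis, is turned into acetyl-CoA in the mitochondrial matrix by the pyruvate dehydrogenase complex, which kinases named Pdk switch off by phosphorylation. Citrate synthase joins acetyl-CoA to oxaloacetate, and a circle of dehydrogenases then oxidises citrate back to oxaloacetate while filling the electron carriers of the respiratory chain. Quiescent SCs are known for a low metabolic rate that increases when they activate. CPEB1 is an RNA-binding protein that recognises the cytoplasmic polyadenylation element (CPE), a U-rich motif in 3′ UTRs, and can repress or activate translation through it.

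The CPE was searched here as the DNA letters TTTTAT and TTTTAAT on the strand of the transcript. The 2 motifs cannot begin at the same base and can share at most 1 base. Either motif was present in an annotated 3′ UTR of 22 of the 35 genes (62.9%), against 7428 of 10891 tested genes with an annotated 3′ UTR (68.2%). With TTTTAT alone the shares were 21 of 35 genes and 63.1%. CPEs near the poly(A) signal are the ones known to drive cytoplasmic polyadenylation, and 7 of the 35 genes (20%) held 1 within 100 bases before an AATAAA or ATTAAA in the last 50 bases of a 3′ UTR. The share over all tested genes with a 3′ UTR was 20% as well, at 2181 of 10891. These 7 sites are shown first below because they lie where CPEs are known to act, each in a window of 30 bases read 5′ to 3′ from mm10 (GRCm38), with the CPE in capitals. They were taken from GENCODE M21 transcripts on the same assembly.
Idh1, chr1:65158713-65158742, minus strand: ctgctgcatttcTTTTATataaatgtgact
Idh3a, chr9:54604529-54604558, plus strand: tttttttaaagcTTTTATttggacttacaa
Pdha1, chrX:160122324-160122353, minus strand: attccaattttgTTTTATtgtatagtaatg
Pdhx, chr2:103039678-103039707, minus strand: ggtttatatctTTTTAATcacctaccagtc
Pdk3, chrX:93764666-93764695, minus strand: catctgtatcaaTTTTATtttaaagttcat
Pdk4, chr6:5483363-5483392, minus strand: gaattgtgataaTTTTATaataaatatttt
Got1, chr19:43499775-43499804, minus strand: tagtctgttctgTTTTATttaaaaaataaa

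The CPE of Pdk4 lay directly against the poly(A) signal, with 0 bases between them, and that of Got1 lay 6 bases before it. In Pdk3, Pdhx, Idh1, Idh3a and Pdha1 the distance was 33, 41, 76, 95 and 98 bases. CPEs that overlap the poly(A) signal were not counted here. Idh1 has such a CPE, a TTTTAAT that begins 38 bases before the end of its 3′ UTR. The sites of Idh3a and Got1 lie in annotated 3′ UTRs of 1296 and 666 bases. Their longest annotated 3′ UTRs, of 1662 and 825 bases, hold no CPE. Of these 7 genes, Idh3a, Pdha1 and Pdk4 were higher in CPEB1 IP than in IgG by the test given below, and the other 4 did not pass it. The sites of Cs, Sdha and Mdh1, enzymes on which several of the comparisons below turn, did not have this position by the rule used here. In the Sdha window an AATAAA does follow the CPE. It lies too far from the end of the 3′ UTR to be counted as a poly(A) signal under that rule. These sites are shown for contrast, again with the CPE in capitals.
Cs, chr10:128362450-128362479, plus strand: taaaaataataaatgtTTTTATtaacaatg
Sdha, chr13:74322830-74322859, minus strand: aaatgagcaatcTTTTATttccaaataaaa
Mdh1, chr11:21557146-21557175, minus strand: taattttacttTTTTAATtgactaaaagaa

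The longest 3′ UTR of Cs holds 2 CPEs, of which 1 begins 817 bases before its end. The CPE shown came after the poly(A) signal and ended 8 bases before the end of the 3′ UTR, which measures 1347 bases. It ended 588 bases before the end of the 833 bases of the Sdha 3′ UTR and 371 bases before the end of the 656 bases of the Mdh1 3′ UTR. The letters occurred in no annotated 3′ UTR of 13 of the genes. Among them were Ogdh, Idh2, Idh3g, Mdh2, Suclg1, Sdhb and Sdhd, which are 7 of the 18 genes that were higher in CPEB1 IP than in IgG. A motif was present in 11 of those 18 genes (61.1%) and in 11 of the other 17 (64.7%). The longest 3′ UTR of a gene had a median length of 891 bases over the 35 genes and 1486 bases over all tested genes.

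**Figure D1:**
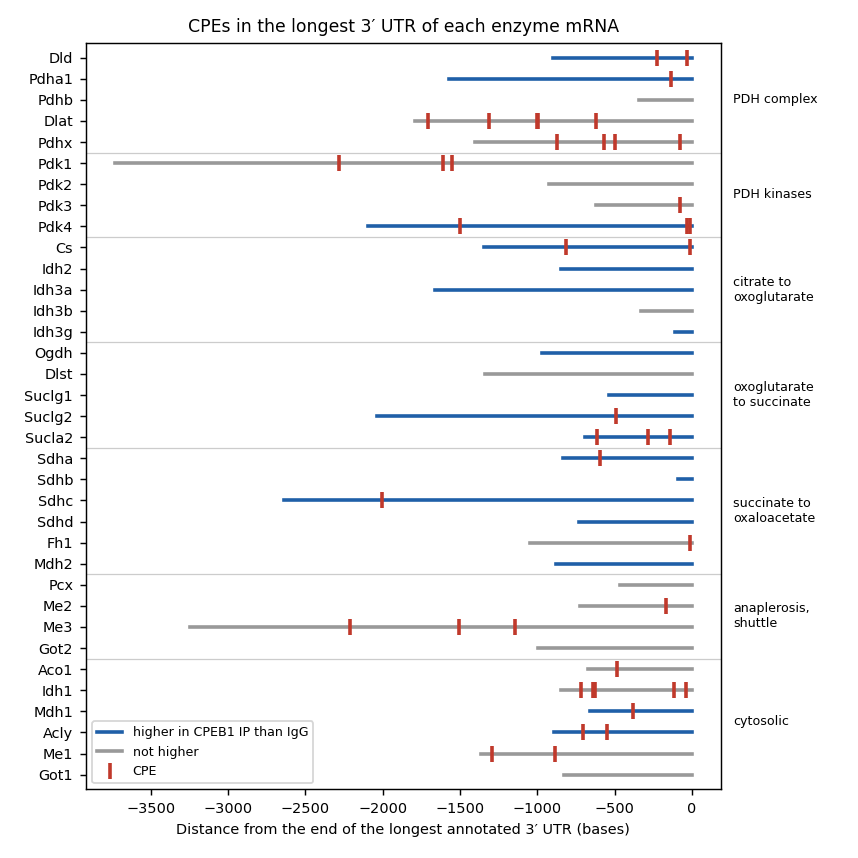
The longest annotated 3′ UTR of each of the 35 enzyme mRNAs, drawn to scale as a line that ends at 0, with the distance from its end in bases on the x axis and each CPE (TTTTAT or TTTTAAT) as a red bar. Blue lines mark the 18 genes higher in CPEB1 IP than in IgG and grey lines the other 17, and lines without a red bar occur in both colours, with Ogdh, Idh2 and Mdh2 among the blue ones. Idh3a and Got1 have no red bar here because their CPEs lie in shorter annotated 3′ UTRs.

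Counts on genes added up to between 1284716 and 1359052 in the IgG libraries and between 2564323 and 4941653 in the other 4. The 35 genes took 0.408% and 0.426% of them in Input, 0.226% and 0.226% in IgG and 0.319% and 0.349% in CPEB1 IP. The summed level of 8 SC markers (Pax7, Myf5, Calcr, Vcam1, Itga7, Sdc4, Chodl and Myod1) was 10893 and 12280 CPM in Input. Here CPM is the count of a gene as scaled by TMM to a common library size over the 6 libraries. The same sum was 9933 to 10034 CPM in IgG and 10950 to 13204 in CPEB1 IP. Of these 8 markers, 4 were higher and 0 lower in CPEB1 IP than in IgG. Against Input, 1 was higher and 3 were lower in CPEB1 IP, and 1 was higher and 5 were lower in IgG. Of the other cell types, 4 leukocyte markers summed to 12.6 to 28.5 CPM in Input, 45.9 to 61.5 in IgG and 13.3 to 20.2 in CPEB1 IP. The 3 of them that could be tested were lower in CPEB1 IP than in IgG, and 2 of 3 were higher in IgG than in Input. Myofibre markers (5 genes) summed to 61.4 to 74.9 CPM in Input, 106 to 121 in IgG and 121 to 152 in CPEB1 IP, and endothelial markers (4 genes) to 103 to 109, 107 to 135 and 147 to 150 CPM. Fibro-adipogenic markers (4 genes) summed to 611 to 617 CPM in Input, 355 to 378 in IgG and 505 to 558 in CPEB1 IP, and mural markers (3 genes) to 296 to 395, 166 to 182 and 183 to 203 CPM. No listed marker was at 0 in both Input libraries. In such bulk libraries the number of cells of a type, the RNA in each cell and its recovery in a precipitate cannot be told apart. The part of these differences in the values below was not tested.

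In Input, the enzyme mRNAs covered a wide range of levels. Because long transcripts collect more reads, levels of different genes were compared as CPM for each kilobase of exon. Idh2, the mitochondrial isocitrate dehydrogenase that makes NADPH, stood first with 122 ± 13.7 CPM per kb, followed by the flavoprotein of succinate dehydrogenase, Sdha, with 108 ± 18.0 and the mitochondrial malate dehydrogenase Mdh2 with 87.2 ± 2.99 (SD, n = 2 each). The spread of Idh2 and Sdha covered the difference between them. Idh3g (70.7 ± 3.56) and Sdhb (69.4 ± 1.26) came next, also within their spread. The lowest levels belonged to the malic enzymes Me3 (0.44 ± 0.01 CPM per kb) and Me1 (0.53 ± 0.07), to the kinase Pdk1 (1.5 ± 0.34) and to Me2 (1.56 in both libraries). Mdh1, the cytosolic malate dehydrogenase, was the highest of the cytosolic enzymes at rank 9 with 47.0 ± 5.73 CPM per kb. The kinases differed among themselves: Pdk4 had 31.6 ± 1.95 CPM per kb, Pdk2 6.72 ± 0.78 and Pdk3 4.44 ± 0.85.

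**Figure D2:**
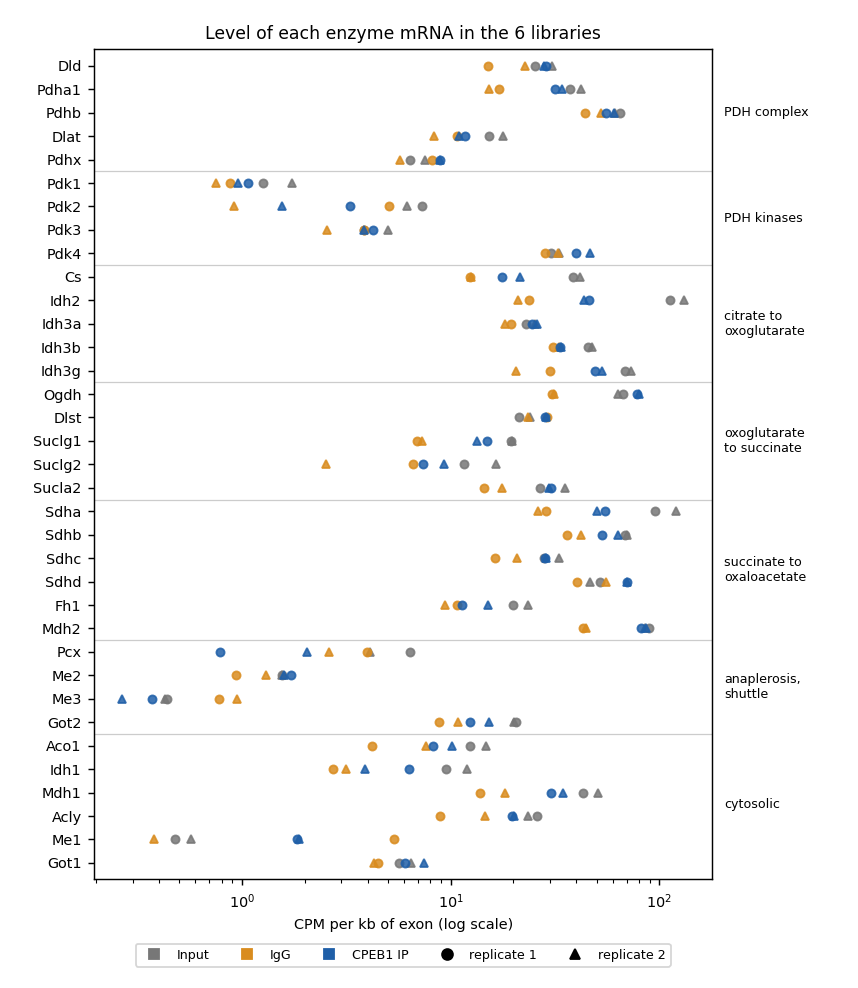
Level of each of the 35 enzyme mRNAs in each of the 6 libraries, as CPM per kilobase of exon on a log axis, with the genes grouped by the step they serve, colours for Input, IgG and CPEB1 IP and shapes for the replicates. For most genes the orange IgG points lie to the left of the blue CPEB1 IP points, and in rows such as Idh2, Sdha and Cs the grey Input points lie farthest to the right.

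The comparison of CPEB1 IP with IgG asks which RNAs came down with the CPEB1 antibody beyond those that came down with a control antibody. Raw counts were compared by the quasi-likelihood test of edgeR, p-values were adjusted over all genes tested by the Benjamini-Hochberg method, and a gene was called higher or lower at an adjusted p under 0.05. The standard error given with a log2 fold change comes from the same fit. The study describes the replicates as independent experiments, and the labels do not say which mice each library came from. Of the 35 enzyme mRNAs, 18 were higher in CPEB1 IP than in IgG, 2 (Pcx and Me3) were lower and 15 were not past an adjusted p of 0.05. Over all 12124 genes tested, 14.7% were higher and 18.7% were lower. The median log2 fold change of the enzymes was 0.51, against -0.01 over all genes. For 30 of them both CPEB1 IP libraries lay above both IgG libraries, which held for 35.8% of all genes tested.

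Input places both precipitates against the RNA the cells held. Against Input, 4 of the 35 were higher in CPEB1 IP (Dlst, Sdhd, Pdk4 and Me1) and 14 were lower, where 17.0% of 12171 genes were higher and 15.8% lower. The median log2 fold change was -0.26, against -0.0038 over all genes, and both CPEB1 IP libraries lay below both Input libraries for 21 genes (36.0% of all genes tested). The IgG precipitate stood farther from Input: of 34 genes tested, 23 were lower in IgG than in Input and 0 were higher, where 19.4% of 12980 genes were lower and 21.4% higher. At an unadjusted p under 0.05 only Me3 was higher in IgG than in Input, and DESeq2 called 0 higher as well. Both IgG libraries lay below both Input libraries for 28 genes (34.2% of all genes tested), and the median log2 fold change was -0.91, against 0.03 over all genes. The 3 comparisons share libraries in pairs and are not independent of each other.

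Side by side, the mean CPM of 22 of the 34 genes tested in all 3 comparisons followed the order IgG, CPEB1 IP, Input from lowest to highest, an order that 26.7% of 11079 genes had. The most frequent set of calls, in 8 genes, was higher in CPEB1 IP than in IgG, not past the threshold against Input, and lower in IgG than in Input, which 5.28% of those 11079 genes showed. A further 7 genes (Cs, Idh2, Idh3g, Suclg1, Suclg2, Sdha and Mdh1) were higher in CPEB1 IP than in IgG and lower in both precipitates than in Input (2.57% of all genes). Higher in CPEB1 IP than in either of the other groups were 2 genes, Sdhd and Pdk4, or 2 of 34 beside 5.7% of all genes.

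**Figure D3:**
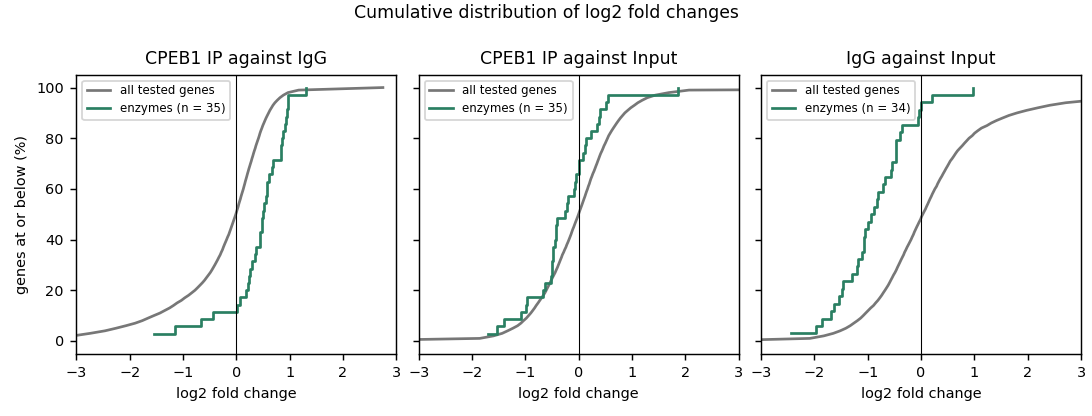
Cumulative share of genes, in percent, by log2 fold change in each of the 3 comparisons, for all tested genes (grey) and for the enzymes (green, 35, 35 and 34 genes). The green curve lies to the right of the grey one for CPEB1 IP against IgG (medians 0.51 and -0.01) and to its left for IgG against Input (medians -0.91 and 0.03).

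The pyruvate dehydrogenase complex makes acetyl-CoA from pyruvate. Of its 5 components here, Pdha1 and Dld were higher in CPEB1 IP than in IgG, and Pdhb, Dlat and Pdhx did not pass the test. Pdha1, the catalytic E1 alpha subunit (chromosome X, 160122209 to 160138413), had 139.6 and 158 CPM in Input, 63.8 and 56.8 in IgG and 118 and 128 in CPEB1 IP. All CPEB1 IP values lay above the IgG values and below the Input values. The CPEB1 IP to IgG difference was 0.97 (standard error 0.15, adjusted p = 5.78e-05) on the log2 scale, a 1.95-fold difference, and it was lower in IgG than in Input (log2 fold change -1.30, standard error 0.19, adjusted p = 8.48e-07) while its difference between CPEB1 IP and Input was -0.22 (standard error 0.14, adjusted p = 0.242). Its exons share 603 bases with Map3k15 on the other strand, a gene with 13 counts in all, and whether reads were counted by strand is not given in the sources used here. Dld, the lipoamide dehydrogenase that this complex shares with the oxoglutarate dehydrogenase complex, had 93.6 and 112 CPM in Input, 55.4 and 83.8 in IgG and 105 and 103 in CPEB1 IP. The CPEB1 IP values fell within the Input range, and the log2 fold change over IgG was 0.51 (standard error 0.16, adjusted p = 0.019).

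Pdhb, the E1 beta subunit and the most abundant component per kilobase in Input, had 251 and 236 CPM in Input, 170.1 and 202 in IgG and 215 and 233 in CPEB1 IP. The groups ranked Input, CPEB1 IP, IgG without overlap, but the log2 fold change over IgG was 0.21 (standard error 0.11, adjusted p = 0.166). Dlat, the E2 acetyltransferase that forms the core, was lower than Input in both precipitates, with 74.6 and 87.5 CPM in Input, 52.4 and 40.8 in IgG and 57.1 and 53.9 in CPEB1 IP. Its log2 fold changes were -0.50 (standard error 0.16, adjusted p = 0.0283) for CPEB1 IP and -0.80 (standard error 0.22, adjusted p = 0.00345) for IgG. Pdhx, which anchors Dld to the core and carries a CPE 41 bases before the poly(A) signal, passed the test in none of the 3 comparisons.

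The 4 pyruvate dehydrogenase kinases did not share a pattern. Pdk4, the isoform induced by fasting in muscle, had 106 and 116 CPM in Input, 99.5 and 115 in IgG and 139.6 and 163 in CPEB1 IP. Both CPEB1 IP values lay above the 4 others, while Input and IgG overlapped. Pdk4 was higher in CPEB1 IP than in IgG (log2 fold change 0.44, standard error 0.13, adjusted p = 0.013) and than in Input (log2 fold change 0.50, standard error 0.14, adjusted p = 0.0169), with -0.05 (standard error 0.18, adjusted p = 0.851) for IgG against Input. Its 3′ UTR of 2098 bases holds the CPE shown above that touches the poly(A) signal. Pdk2 went the other way against Input: it had 23.0 and 19.5 CPM in Input, 16.0 and 2.91 in IgG and 10.4 and 4.95 in CPEB1 IP. The IgG libraries lay far apart and enclosed the CPEB1 IP values. Pdk2 was lower in CPEB1 IP than in Input by 2.88-fold (log2 fold change -1.52, standard error 0.36, adjusted p = 0.00573). It was also lower in IgG than in Input (log2 fold change -1.19, standard error 0.45, adjusted p = 0.0325), a call that not all alternatives kept. Its log2 fold change over IgG was -0.44 (standard error 0.56, adjusted p = 0.588), and was 1.27 without IgG replicate 1 (adjusted p = 0.246). Pdk1, the isoform induced by hypoxia, and Pdk3 were scarce, with 9.82 to 13.5 CPM in Input. Pdk1 had 6.84 and 5.83 CPM in IgG and 8.33 and 7.43 in CPEB1 IP, and Pdk3 had 9.87 and 6.56 in IgG and 10.8 and 9.91 in CPEB1 IP. Neither passed the test in any comparison.

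In the step from citrate to oxoglutarate, 4 of 5 mitochondrial enzymes were higher in CPEB1 IP than in IgG and 4 of 5 were lower in CPEB1 IP than in Input. Cs, the citrate synthase that starts the cycle (chromosome 10, 128337734 to 128362479), had 222 and 241 CPM in Input, 71.4 and 72.1 in IgG and 102 and 124 in CPEB1 IP. The 3 groups were apart from each other, with CPEB1 IP nearer to IgG than to Input. The log2 fold changes were 0.61 (standard error 0.15, adjusted p = 0.00338) for CPEB1 IP against IgG, -0.97 (standard error 0.14, adjusted p = 0.000307) for CPEB1 IP against Input and -1.69 (standard error 0.18, adjusted p = 7.42e-10) for IgG against Input. Idh2 (chromosome 7, 80094846 to 80115392) showed the largest drop of the 34 genes tested between IgG and Input. It had 289.7 and 339.7 CPM in Input, 61.5 and 54.6 in IgG and 119 and 112 in CPEB1 IP. Thus Idh2 was 5.42-fold lower in IgG than in Input (log2 fold change -2.44, standard error 0.18, adjusted p = 9.25e-14) and 2.63-fold lower in CPEB1 IP than in Input (log2 fold change -1.40, standard error 0.14, adjusted p = 1.69e-05). It was at the same time 1.9-fold higher in CPEB1 IP than in IgG (log2 fold change 0.92, standard error 0.15, adjusted p = 9.95e-05).

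The NAD-dependent isocitrate dehydrogenase, the form that works in the cycle, is built from the catalytic Idh3a and the subunits Idh3b and Idh3g. Of these 3 subunits, Idh3g and Idh3a were higher in CPEB1 IP than in IgG and Idh3b was not past the threshold. Idh3g had 184 and 198 CPM in Input, 81.3 and 55.4 in IgG and 132 and 144 in CPEB1 IP, with no overlap between groups, and was higher in CPEB1 IP than in IgG with 0.96 (standard error 0.15, adjusted p = 0.000112). Idh3a had 117 and 128 CPM in Input, 98.7 and 92.5 in IgG and 125 and 131 in CPEB1 IP, with CPEB1 IP above IgG and overlapping Input. Over IgG, Idh3a differed on the log2 scale by 0.36 (standard error 0.13, adjusted p = 0.0349). Idh3b had 156 and 163 CPM in Input, 106 and 113 in IgG and 114 and 116 in CPEB1 IP. The precipitates lay close to each other and below Input, and the log2 fold change of Idh3b over IgG was 0.0054 (standard error 0.13, adjusted p = 0.98). Against Input, Idh3b was lower both in CPEB1 IP (log2 fold change -0.42, standard error 0.13, adjusted p = 0.0293) and in IgG (log2 fold change -0.54, standard error 0.17, adjusted p = 0.011). The differences between the subunits were not tested.

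The enzymes from oxoglutarate to succinate held the highest fold change of CPEB1 IP over IgG among the 35, and 4 of the 5 were higher. Ogdh, the E1 subunit of the oxoglutarate dehydrogenase complex (chromosome 11, 6291633 to 6356642), had 363 and 345 CPM in Input, 166 and 170.4 in IgG and 428 and 438 in CPEB1 IP. CPEB1 IP was above both other groups, which did not overlap each other either. For Ogdh the log2 fold change over IgG came to 1.30 (standard error 0.10, adjusted p = 1.55e-08), a 2.46-fold difference that ranked 81 from the top of 12124 genes. Against Input the value for CPEB1 IP was 0.34 (standard error 0.12, adjusted p = 0.0505), just outside the threshold, and Ogdh was lower in IgG than in Input (log2 fold change -1.07, standard error 0.15, adjusted p = 5.93e-07). Ogdh is among the genes with no CPE letters in an annotated 3′ UTR. Dlst, the E2 subunit of the same complex, had 204 and 229.9 CPM in Input, 276 and 224 in IgG and 272 and 275 in CPEB1 IP. Its CPEB1 IP values lay within the IgG range and above Input. For Dlst the log2 fold change came to 0.06 (standard error 0.11, adjusted p = 0.698) over IgG and 0.39 (standard error 0.13, adjusted p = 0.0341) over Input, the latter past the threshold.

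Succinyl-CoA synthetase pairs the subunit Suclg1 with Sucla2 in its ATP-forming version or with Suclg2 in its GTP-forming version. All 3 subunits were higher in CPEB1 IP than in IgG. Suclg1 (chromosome 6, 73248382 to 73276911) had 89.6 and 91.0 CPM in Input, 31.9 and 33.5 in IgG and 68.7 and 61.7 in CPEB1 IP, again with no overlap, and a log2 fold change over IgG of 0.92 (standard error 0.19, adjusted p = 0.000895). Sucla2 had 107 and 141 CPM in Input, 57.7 and 70.7 in IgG and 121 and 118 in CPEB1 IP, where CPEB1 IP and Input overlapped. On the log2 scale the fold change of Sucla2 was 0.83 (standard error 0.15, adjusted p = 0.000232) over IgG and 0.0038 (standard error 0.15, adjusted p = 0.988) over Input. The value of Suclg2 was less certain, since its IgG libraries had 30.4 and 11.7 CPM beside 34.2 and 42.9 in CPEB1 IP and 53.4 and 76.5 in Input. It gave 0.84 (standard error 0.30, adjusted p = 0.0341) over IgG, and 2 libraries decided the call: with CPEB1 IP replicate 2 left out it had a value of 0.66 (adjusted p = 0.189), and with IgG replicate 2 left out the log2 fold change was 0.35 (adjusted p = 0.351). Both Suclg1 (log2 fold change -0.43, standard error 0.15, adjusted p = 0.0454) and Suclg2 (log2 fold change -0.68, standard error 0.20, adjusted p = 0.0214) were lower in CPEB1 IP than in Input.

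From succinate to oxaloacetate, 5 of 6 enzymes were higher in CPEB1 IP than in IgG, Fh1 being the exception. Sdha to Sdhd form succinate dehydrogenase, which is also complex II of the respiratory chain. Sdha (chromosome 13, 74322254 to 74350280) had 393 and 498 CPM in Input, 118 and 109 in IgG and 226 and 207 in CPEB1 IP. The order of the groups was the one seen for Cs and Idh2, with log2 fold changes of 0.86 (standard error 0.12, adjusted p = 2.42e-05) over IgG and -0.99 (standard error 0.14, adjusted p = 0.000221) over Input. In IgG, Sdha was 3.92-fold lower than in Input (log2 fold change -1.97, standard error 0.16, adjusted p = 1.95e-12). Sdhb, the iron-sulphur subunit, had 153 and 157 CPM in Input, 81.3 and 94.7 in IgG and 118 and 141 in CPEB1 IP and a log2 fold change over IgG of 0.51 (standard error 0.14, adjusted p = 0.00831). Sdhc, a membrane anchor, had 91.5 and 107 CPM in Input, 53.2 and 67.7 in IgG and 92.5 and 93.5 in CPEB1 IP, with 0.55 (standard error 0.16, adjusted p = 0.00925) over IgG. For neither did CPEB1 IP and Input differ past the threshold. Sdhd, the other anchor, had 64.1 and 57.3 CPM in Input, 49.4 and 68.5 in IgG and 85.8 and 85.9 in CPEB1 IP. Here Input and IgG overlapped, and CPEB1 IP stood above both. Sdhd was higher in CPEB1 IP than in IgG (log2 fold change 0.47, standard error 0.16, adjusted p = 0.0306) and than in Input (log2 fold change 0.55, standard error 0.16, adjusted p = 0.0163), with -0.04 (standard error 0.22, adjusted p = 0.893) between IgG and Input.

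Fh1, the fumarase, also works in the cytosol and is counted here as mitochondrial. It had 67.5 and 79.7 CPM in Input, 36.5 and 32.0 in IgG and 38.3 and 51.4 in CPEB1 IP. It was lower than Input in both precipitates, with log2 fold changes of -0.64 (standard error 0.18, adjusted p = 0.0177) for CPEB1 IP and -1.10 (standard error 0.24, adjusted p = 0.000229) for IgG. Mdh2 (chromosome 5, 135778480 to 135790398) had 318 and 303 CPM in Input, 153 and 159 in IgG and 290.0 and 307 in CPEB1 IP. CPEB1 IP and Input overlapped, and IgG lay below both. For Mdh2 the log2 fold change came to 0.88 (standard error 0.11, adjusted p = 6.33e-06) over IgG, -0.0040 (standard error 0.13, adjusted p = 0.985) over Input, and -1.0 (standard error 0.16, adjusted p = 2.64e-06) for IgG against Input.

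Of the 4 mitochondrial enzymes that refill the cycle or serve its shuttles, 0 were higher in CPEB1 IP than in IgG, also by DESeq2, with 1 (Got2) past 0.05 before adjustment in edgeR, and 2 were lower. Without a filter on low counts, edgeR called Got2 higher (log2 fold change 0.85, adjusted p = 0.00209). Its log2 fold change was 0.66 without IgG replicate 2. Pcx, the pyruvate carboxylase that makes oxaloacetate from pyruvate, had 30.4 and 19.5 CPM in Input, 19.0 and 12.4 in IgG and 3.75 and 9.70 in CPEB1 IP. CPEB1 IP was below both other groups. Pcx was 2.23-fold lower in CPEB1 IP than in IgG (log2 fold change -1.16, standard error 0.44, adjusted p = 0.0457) and 3.27-fold lower than in Input (log2 fold change -1.71, standard error 0.38, adjusted p = 0.00424). The first of these calls held under 4 of 10 alternatives, was lost with DESeq2, without a filter on low counts, with all 6 libraries in 1 fit, without CPEB1 IP replicate 1 and without either IgG library, and had an adjusted p between 0.0176 and 0.32. Me3, a mitochondrial malic enzyme of very low level, had 6.45 and 6.30 CPM in Input, 11.4 and 13.8 in IgG and 5.42 and 3.92 in CPEB1 IP. IgG was above both other groups. It was 2.91-fold lower in CPEB1 IP than in IgG (log2 fold change -1.54, standard error 0.44, adjusted p = 0.00997), with 0.98 (standard error 0.47, adjusted p = 0.0898) for IgG against Input. That call held under 5 of 10 alternatives and was lost with DESeq2, without the filter, without either CPEB1 IP library and without IgG replicate 2 (adjusted p between 0.00588 and 0.201). Me2, the other mitochondrial malic enzyme, had 11.4 and 11.3 CPM in Input, 6.84 and 9.47 in IgG and 12.5 and 11.6 in CPEB1 IP and passed no test.

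Of the 6 cytosolic enzymes, Mdh1 and Acly were higher in CPEB1 IP than in IgG. Mdh1 (chromosome 11, 21556787 to 21572367) had 110.2 and 131 CPM in Input, 35.7 and 46.6 in IgG and 77.5 and 88.4 in CPEB1 IP, with the 3 groups apart. Over IgG the log2 fold change of Mdh1 came to 0.95 (standard error 0.18, adjusted p = 0.000364), and Mdh1 was lower than Input in CPEB1 IP (log2 fold change -0.48, standard error 0.15, adjusted p = 0.0277) and in IgG (log2 fold change -1.55, standard error 0.21, adjusted p = 2.68e-07). Acly, which splits exported citrate to supply acetyl-CoA for lipid synthesis, had 136 and 124 CPM in Input, 47.1 and 77.2 in IgG and 104 and 106 in CPEB1 IP. Its log2 fold change over IgG was 0.69 (standard error 0.17, adjusted p = 0.00418), and was 0.43 without IgG replicate 1 (adjusted p = 0.054). Aco1, which is an aconitase or, without its iron-sulphur cluster, an RNA-binding regulator of iron metabolism, had 55.9 and 66.4 CPM in Input, 19.0 and 34.2 in IgG and 37.1 and 45.4 in CPEB1 IP. It did not pass the test in CPEB1 IP against IgG (log2 fold change 0.58, standard error 0.25, adjusted p = 0.0818) and was lower in IgG than in Input (log2 fold change -1.19, standard error 0.27, adjusted p = 0.0004).

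Me1, the cytosolic malic enzyme that supplies NADPH, had the widest range over the alternatives among the 35 in CPEB1 IP against IgG. It had 1.84 and 2.20 CPM in Input, 20.5 and 1.46 in IgG and 7.08 and 7.23 in CPEB1 IP, and the IgG values stood for 27 and 2 counts. The IgG libraries thus lay on either side of all 4 others. Me1 was 3.63-fold higher in CPEB1 IP than in Input (log2 fold change 1.86, standard error 0.47, adjusted p = 0.00927), which was the highest fold of the 35 in that comparison, from 6 and 7 counts in the Input libraries. Over IgG, Me1 differed on the log2 scale by -0.66 (standard error 0.58, adjusted p = 0.42), but 2.25 (adjusted p = 0.0614) when IgG replicate 1 was left out. When IgG replicate 2 was left out it was -1.53 (adjusted p = 0.0192). It did not pass the filter on low counts for IgG against Input.

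**Figure D4:**
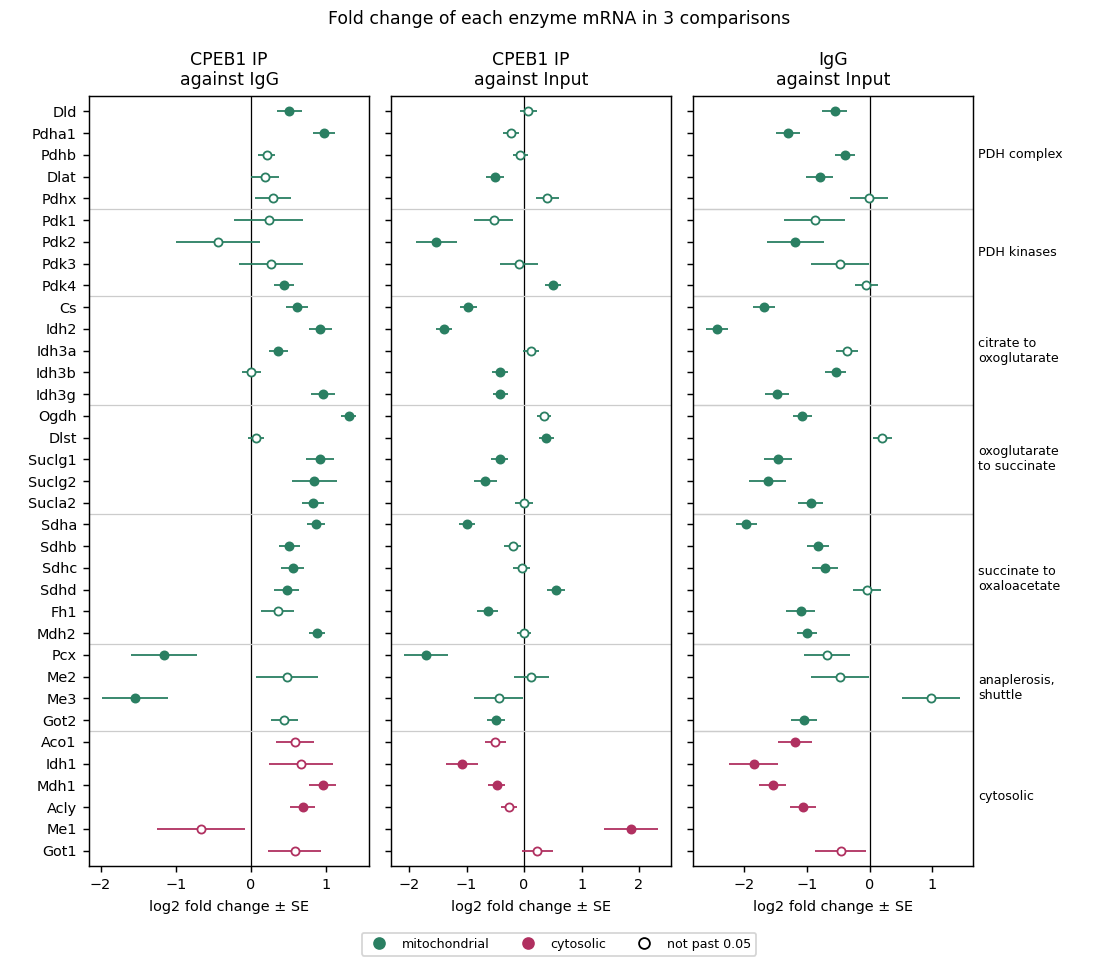
Log2 fold change of each of the 35 enzyme mRNAs, with its standard error as a line, in CPEB1 IP against IgG, CPEB1 IP against Input and IgG against Input. Green marks the 29 mitochondrial and red the 6 cytosolic enzymes, and filled points passed an adjusted p of 0.05: 18 filled points lie above 0 in the first panel, 14 below 0 in the second and 23 below 0 in the third.

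By compartment, 16 of 29 mitochondrial and 2 of 6 cytosolic enzymes were higher in CPEB1 IP than in IgG, with median log2 fold changes of 0.47 and 0.62. Without Fh1 the mitochondrial count was 16 of 28. Against Input, 12 mitochondrial and 2 cytosolic enzymes were lower in CPEB1 IP (medians -0.22 and -0.37), and 19 of 29 and 4 of 5 were lower in IgG (medians -0.82 and -1.19). These medians kept their sign with DESeq2's size factors and with plain library totals, the latter of which moved the median of all genes from 0.03 to 0.14 for IgG against Input. Summed over the genes, CPM per kb was 10.4 and 10.1 times as high for the mitochondrial as for the cytosolic enzymes in Input, 13.3 and 11.3 times in IgG, and 11.5 and 11.2 times in CPEB1 IP. The ratio in CPEB1 IP lay between those of the Input libraries and the higher IgG library, and IgG replicate 2 lay within the CPEB1 IP range. With 2 libraries for each group an exact permutation test cannot go below a p of 0.333, so the ratios were not tested.

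Isoenzymes that run the same reaction on either side of the mitochondrial membrane were set beside each other within each library. For malate dehydrogenase, the ratio of Mdh2 to Mdh1 in CPM per kb was 2.08 and 1.67 in Input, 3.08 and 2.46 in IgG and 2.70 and 2.51 in CPEB1 IP. Both precipitates were above Input, and the CPEB1 IP values lay within the IgG range. For NADP-dependent isocitrate dehydrogenase, Idh2 exceeded Idh1 by 11.8 and 11 times in Input, 8.67 and 6.69 in IgG and 7.29 and 11.2 in CPEB1 IP. The CPEB1 IP values overlapped both other groups. Idh1 had 26.4 and 33.1 CPM in Input, 7.6 and 8.74 in IgG and 17.5 and 10.7 in CPEB1 IP. It was lower than Input in CPEB1 IP (log2 fold change -1.08, standard error 0.28, adjusted p = 0.00983) and in IgG (log2 fold change -1.85, standard error 0.39, adjusted p = 0.000172).

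For aspartate aminotransferase, a part of the malate-aspartate shuttle, the ratio of Got2 to Got1 was 3.63 and 3.13 in Input, 1.97 and 2.53 in IgG and 2.05 and 2.04 in CPEB1 IP, lower in both precipitates than in Input. Got2 had 99.4 and 97.3 CPM in Input, 42.5 and 52.4 in IgG and 60 and 73.7 in CPEB1 IP and was lower than Input in CPEB1 IP (log2 fold change -0.49, standard error 0.16, adjusted p = 0.0296) and IgG (log2 fold change -1.05, standard error 0.21, adjusted p = 0.000107). Between CPEB1 IP and IgG the log2 fold change of Got2 was 0.44 (standard error 0.18, adjusted p = 0.0642). Its exons share 434 bases with Gm45760 on the other strand, which had 14 counts in all. The CPE of Got1 lies 6 bases before the poly(A) signal of a shorter annotated 3′ UTR. Got1 had 14.4 and 16.4 CPM in Input, 11.4 and 10.9 in IgG and 15.4 and 19.0 in CPEB1 IP. It passed no test, with 0.58 (standard error 0.35, adjusted p = 0.221) over IgG. The ratio of Me2 to Me1 was 3.27 and 2.73 in Input and 0.936 and 0.849 in CPEB1 IP, while the IgG libraries gave 0.177 and 3.45.

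**Figure D5:**
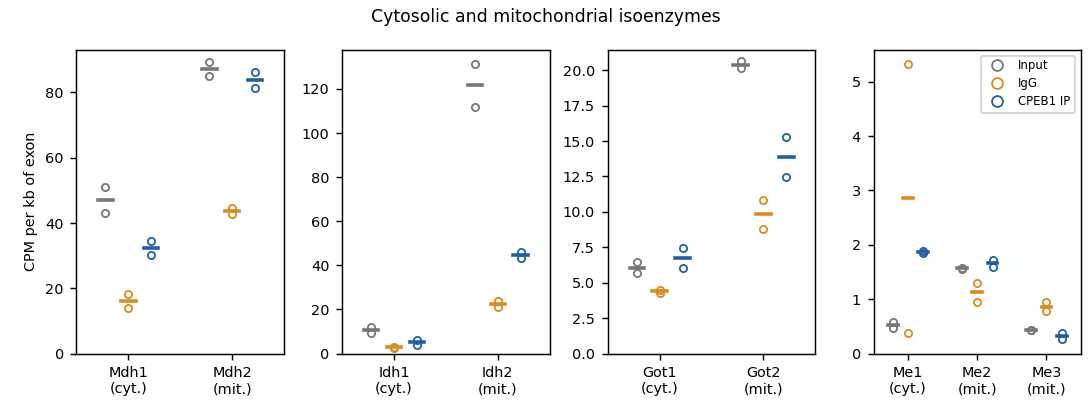
CPM per kilobase of exon of the cytosolic (cyt.) and mitochondrial (mit.) isoenzymes of malate dehydrogenase, isocitrate dehydrogenase, aspartate aminotransferase and malic enzyme, each panel on its own scale from 0. Circles are libraries, bars the means of 2, and the colours Input, IgG and CPEB1 IP: Mdh2 in CPEB1 IP reaches the Input level while Mdh1, Idh2 and Got2 lie between IgG and Input, and the 2 IgG values of Me1 lie far apart.

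Of 33 further genes of these pathways, listed for their function, 24 could be tested in CPEB1 IP against IgG. In that comparison 6 were higher and 2 lower, where 14.7% of all genes tested were higher and 18.7% lower. Those highest were Ldhb (log2 fold change 1.38, standard error 0.40, adjusted p = 0.0109) and Ldha (log2 fold change 0.71, standard error 0.09, adjusted p = 1.18e-05), the lactate dehydrogenase subunits, and the citrate carrier Slc25a1 (log2 fold change 0.86, standard error 0.21, adjusted p = 0.00396). Glud1, the glutamate dehydrogenase, was also higher (log2 fold change 0.34, standard error 0.12, adjusted p = 0.0387). Among the lower ones was Ogdhl, a relative of Ogdh, which had 0 counts in both Input libraries, 21 and 9 in IgG and 2 and 3 in CPEB1 IP. Against Input, 2 of 25 were higher and 4 lower in CPEB1 IP, where 17.0% of all genes tested were higher and 15.8% lower. In IgG, 2 of 25 were higher and 8 lower than in Input, where 21.4% of all genes tested were higher and 19.4% lower.

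The study took a transcript as associated with CPEB1 where its FPKM, the count scaled by transcript length and library total, was over 2 times that in IgG in each experiment and the count test was passed. With a pseudocount of 1 and edgeR's test in place of DESeq2, 16 of the 35 enzymes met that rule, as did 12.1% of the 12124 genes tested. They were Cs, Idh2, Idh3g, Ogdh, Dld, Suclg1, Sucla2, Sdha, Sdhb, Sdhc, Sdhd, Mdh1, Mdh2, Acly, Pdha1 and Pdk4. Of these, Dld, Sdhb, Sdhc, Sdhd and Pdk4 were not called higher by DESeq2, the test the study used. The study itself names Mdh1 and Sdha among its CPEB1 targets. The deposited FPKM divides by a library total of which 39.5% and 39.1% were counts on genes in IgG, but 69.9% and 69.5% in CPEB1 IP. The median log2 FPKM ratio over 10993 genes was accordingly 0.62 and 0.69 in the 2 same-numbered pairs, and 0.11 and 0.10 when FPKM was recomputed with TMM library sizes. For the enzymes the medians were 1.06 and 1.11 by the deposited values and 0.48 and 0.49 with TMM sizes. With TMM sizes, Ogdh was the 1 enzyme whose ratio stayed above 2 in both pairs, at 2.52 in each, where the deposited ratios were 3.92 and 4.18. Idh2 had 1.9 and 2.0 with TMM sizes, against 2.93 and 3.27 as deposited.

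Of the 18 enzymes higher in CPEB1 IP than in IgG, 9 kept the call under all 10 alternatives tried: Ogdh, Pdha1, Idh2, Idh3g, Suclg1, Sucla2, Sdha, Mdh1 and Mdh2. DESeq2 did not call Dld, Idh3a, Pdk4, Sdhb, Sdhc, Sdhd and Suclg2. Without CPEB1 IP replicate 2, the deepest library, 10 of the 18 kept the call, and Cs was among the 8 lost. Acly was lost without IgG replicate 1. Of the 14 lower than Input in CPEB1 IP, 4 (Cs, Idh2, Sdha and Pcx) kept the call under all 10, and 0 of the 4 higher ones did, since all 4 were lost when either CPEB1 IP library was left out. Each of the other 10 lower ones was lost without CPEB1 IP replicate 1 or without replicate 2. Of the 23 lower in IgG than in Input, 17 kept the call, and Dlat, Dld, Idh3b, Pdhb, Pdk2 and Sdhc did not.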

How the data were processed

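RIP-seq of SCs gave 6 libraries, 2 each of CPEB1 IP, IgG and Input, grouped by the sample labels. Reads were aligned by the authors to mm10 (HISAT) and assigned to genes (featureCounts), and the deposited counts are raw. The deposited FPKM was computed by the authors from count, exon length and a library total larger than the counts on genes. The annotation release and the treatment of reads mapping to several places are not given in the sources used here. Depth limits precision most in IgG, which had 39.5% and 39.1% of its FPKM total on genes.

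Raw counts were fitted on the whole table in R 4.3.3 with edgeR 4.0.16 (filterByExpr, TMM, quasi-likelihood test, Benjamini-Hochberg adjustment at 0.05), with 2 groups in a fit. The procedure was tested on simulated data. The standard error is the size of the log2 fold change divided by the square root of F. CPM values used TMM factors over all 6 libraries, so they differ slightly from the 2-group fits. Replicates differed beyond sampling noise in each group. Positions of all 35 genes equalled those in GENCODE M21 on mm10, from which 3′ UTRs were taken.

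The 35 genes, their roles and the other lists were chosen with earlier results of these data known. Named in each comparison were up to 12 genes past the threshold with the largest log2 fold changes and a mean of at least 10 CPM, and named throughout were the malate and isocitrate dehydrogenases, aminotransferases, malic enzymes, kinases, Sdha and Cs. The remaining genes were added to complete each step. Of the other pathway genes, those with the 3 largest and 3 smallest log2 fold changes past the threshold were to be named, and some of these are not reported here. Alternatives were DESeq2 1.42.0, DESeq2's size factors, no filter, the replicate number as a block, all 6 libraries in 1 fit, library totals, each library left out, pseudocounts of 0.1 and 5, and FPKM with TMM library sizes. Python 3.11.15 with pandas 2.3.3 and matplotlib 3.10.9 served the remaining steps.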

Additional observations from a re-analysis of the deposited data

How the results depend on the processing

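With 2 libraries in each group and fewest counts in IgG, the calls rested on the spread that edgeR shares across genes. Of 1039 log2 fold changes of single enzymes under the alternatives, 916 kept their direction and their side of the threshold, 101 fell short of it, 18 passed it and 4 changed sign. Counted with the 916 were 27 changes of sign within 1 standard error that passed the threshold neither way. In CPEB1 IP against IgG, Pdk2 ranged from -1.19 to 1.27 and Me1 from -1.53 to 2.25 with a library left out, and both changed sign without IgG replicate 1. In CPEB1 IP against Input, Sucla2 ranged from -0.20 (without Input replicate 1) to 0.20. In IgG against Input, Dlst was -0.064 without a filter. A lone library in a group was assumed to vary like the others.

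Of CPEB1 IP against IgG, DESeq2 called 11 enzymes higher in place of 18, and leaving out 1 library gave 10 (without CPEB1 IP replicate 2) to 19. The 2 lower calls became 0 with DESeq2 and without a filter, 1 with all 6 libraries in 1 fit, and 0 to 1 with a library left out. Against Input, DESeq2 called 1 higher and 8 lower in place of 4 and 14, and leaving out a library gave 0 to 5 higher and 6 to 15 lower, the lowest counts without either CPEB1 IP library. For IgG against Input, 1 enzyme (Me1) was called higher with all 6 libraries in 1 fit, and 0 to 1 with a library left out. Without a filter the median log2 fold change of all genes was -0.90 in CPEB1 IP against IgG. The FPKM rule was met by 1 enzyme with TMM library sizes and 9 with a pseudocount of 5, in place of 16. The causes were not tested.

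The study set CPEB1 IP beside IgG within each experiment, while the labels do not say that a replicate number marks one experiment, and same-numbered libraries did not deviate together: the correlation of the replicates' deviations from their group means over 13086 genes was -0.0058 between CPEB1 IP and IgG. Input gave -0.043 with CPEB1 IP and 0.034 with IgG. With the replicate number as a block, 18 enzymes were higher and 2 lower in CPEB1 IP than in IgG, 3 higher and 11 lower than in Input, and 0 higher and 23 lower in IgG than in Input. The block removed the calls of Dlst, Idh3b, Idh3g and Suclg1 against Input.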
